A study of Mus musculus with 16 samples.

Results

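Mitosis and spindle genes encode the machinery that carries a cell through division: the kinases and cyclins of mitotic entry, the spindle checkpoint, the centromere and kinetochore, the motors of the spindle and the proteins that condense chromosomes and divide the cell. A list of 59 such genes was followed by symbol in the arrays, with the brightest probe set taken for each gene. A probe set was matched for 58 of the 59 genes, of 19531 genes with a probe set in all, and all 58 were among the 10689 genes bright enough to be tested. Ccnb1, which encodes cyclin B1, was not matched to a probe set, so its level was not analysed here. Kif14 and Top2a each had a second, dim probe set (3.67 to 4.10 and 4.12 to 5.36 log2), which was not used.

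The arrays held RNA of thymocytes from mice 4 weeks old, on the B6g7 background (C57BL/6-derived, with the MHC haplotype of NOD mice) or on the NOD background, a strain that develops autoimmune diabetes. Mice were either non-transgenic (non-Tg), with a polyclonal T cell receptor (TCR) repertoire, or carried the BDC2.5 TCR transgene, the rearranged receptor of a diabetogenic CD4+ T cell clone. Cells expressing CD4 or CD8 were removed with complement, and the remainder were sorted either as DN2-3 cells (CD4-CD8-Lin-CD25+) or as DN4 cells (CD4-CD8-Lin-CD44-CD25-). There were 8 groups, each of 2 arrays: B6g7, NOD, BDC/B6g7 and BDC/NOD at each of the 2 stages. All 8 non-Tg arrays were of female mice, and each BDC group had 1 male array (replicate 1) and 1 female array (replicate 2). The promoters that drive the TCR transgene, and whether an array held 1 animal or a pool, are not given in the sources used here, so the p-values here measure the spread between samples alone, which may be technical.

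Transcripts of these genes accumulate late in the cell cycle, before and during mitosis, and are held down in resting cells. In quiescent cells the DREAM complex represses many of them through a promoter element named CHR, and in dividing cells B-MYB, FOXM1 and NF-Y, which binds CCAAT boxes, drive them. In the thymus, cells that have made a working TCR beta chain pass a checkpoint between the CD25+ and the CD25- double-negative stage and divide rapidly, and this is the step that separates the 2 sorted stages. A TCR transgene supplies a complete receptor earlier than normal rearrangement does.

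The promoters carry these elements in the letters themselves. RefSeq entries (GRCm38.p6) covering 250 bases before to 50 bases after the start of transcription were matched for 51 of the 59 listed genes. These include Ccnb1, of which only the promoter was examined. A CCAAT box (the letters CCAAT on either strand) stood in 38 of the 51, or 74.5%, against 37.9% of the 27025 promoters in the table, and 45.1% held 2 or more, against 12.2%. A CHR (the letters TTTGAA on either strand, or the palindrome TTCGAA) also stood in 38 of the 51, against 19.4% of all promoters, and in 58.8% it lay between -60 and +30, against 5.15%. A CHR in that window together with a CCAAT box was present in 26 of the 51, or 51%, against 2.24% of all promoters. Matches can share letters, and each was counted. In Cdca8 a CHR starting at position 14 overlaps a CCAAT box starting at position 19. In Ube2c the CCAAT boxes starting at -186 and -183 overlap. A match is a description of the sequence, not evidence of binding.

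Promoters of 8 genes are shown, and all but Ccnb2 are also named in the results that follow. Cdk1, Ccnb2, Cdc20, Bub1 and Cenpi moved with most of the list, and Cenpa and Cdc25b did not in B6g7 DN4. Pttg1 fell with the transgene in B6g7 DN4, by less than the list median, and also differed between the strains. Each is 150 bases, from 120 before to 30 after the start, 5′ to 3′ on the strand of the gene, with CCAAT boxes and CHR motifs in capitals. The positions on GRCm38.p6 are chr10:69352883-69353032 (minus strand) for Cdk1, chr9:70421525-70421674 (minus strand) for Ccnb2, chr4:118437314-118437463 (minus strand) for Cdc20, chr2:127831830-127831979 (minus strand) for Bub1, chrX:134307964-134308113 (plus strand) for Cenpi, chr5:30666766-30666915 (plus strand) for Cenpa, chr2:131186828-131186977 (plus strand) for Cdc25b and chr11:43425952-43426101 (minus strand) for Pttg1.
Cdk1: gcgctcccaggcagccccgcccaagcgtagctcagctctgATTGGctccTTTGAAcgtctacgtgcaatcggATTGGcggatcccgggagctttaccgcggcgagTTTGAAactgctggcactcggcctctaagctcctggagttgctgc
Ccnb2: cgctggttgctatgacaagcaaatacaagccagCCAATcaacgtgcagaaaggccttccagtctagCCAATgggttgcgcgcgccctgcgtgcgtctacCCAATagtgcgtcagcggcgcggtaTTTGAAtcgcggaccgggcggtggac
Cdc20: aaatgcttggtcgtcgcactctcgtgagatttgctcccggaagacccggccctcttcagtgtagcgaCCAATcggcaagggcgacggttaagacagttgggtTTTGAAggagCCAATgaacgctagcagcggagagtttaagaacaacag
Bub1: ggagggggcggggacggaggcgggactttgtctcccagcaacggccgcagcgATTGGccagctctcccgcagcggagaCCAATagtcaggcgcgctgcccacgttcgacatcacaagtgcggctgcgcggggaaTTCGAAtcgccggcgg
Cenpi: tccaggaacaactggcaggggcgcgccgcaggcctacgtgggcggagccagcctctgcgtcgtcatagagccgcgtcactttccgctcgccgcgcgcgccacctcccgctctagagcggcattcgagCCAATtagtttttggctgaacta
Cenpa: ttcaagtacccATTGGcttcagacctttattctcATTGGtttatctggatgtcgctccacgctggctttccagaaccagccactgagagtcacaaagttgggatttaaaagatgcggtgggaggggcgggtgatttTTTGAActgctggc
Cdc25b: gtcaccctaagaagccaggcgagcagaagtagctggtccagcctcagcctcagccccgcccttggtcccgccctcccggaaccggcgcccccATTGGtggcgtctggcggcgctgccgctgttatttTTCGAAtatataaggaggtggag
Pttg1: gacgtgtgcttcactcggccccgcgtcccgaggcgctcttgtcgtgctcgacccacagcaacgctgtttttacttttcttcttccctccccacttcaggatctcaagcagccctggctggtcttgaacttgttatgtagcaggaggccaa
Cdk1, Ccnb2, Cdc20 and Bub1 each show at least 2 CCAAT boxes and a CHR. Cenpa and Cdc25b, whose levels followed the list least, show both kinds of motif as well. Cenpi shows a CCAAT box and no CHR in this window, and Pttg1 shows neither motif, which says only that these letters are not in the window.

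All values are log2 of the deposited intensity unless a fold is named. Levels are compared between arrays for 1 gene, never between genes. The median intensity of the arrays ran from 123.1 to 138.2. The 58 genes read at least 6.61 log2 on every array. That was above the highest signal of a Y-linked gene on a female array (5.98), which served as the background. Thymic stroma markers such as Col1a1 (7.38 to 7.86) and Krt8 (6.86 to 7.44) also read above it on every array. A low reading over 5.98, such as Cdc25c in BDC/B6g7 DN4 (6.61 and 6.73), is therefore not proof of expression. Among the arrays, replicate 1 of NOD DN2-3 was unlike the rest. Its upper quartile of intensity over its lower quartile was 6.64, against 7.23 to 10.1 on the other arrays, and it differed from replicate 2 by a median of 0.254, where the pairs of the other groups differed by 0.073 to 0.130. Of the 58 genes, 37 were lower on that array than on its replicate, by 1.22 in the case of Racgap1. The median of replicate 1 minus replicate 2 was -0.119 over the 58 genes and -0.141 over all genes tested. This shift is therefore not read as particular to the list. The main counts and values that use that array are given with and without it. The sort was visible in Il2ra, which encodes CD25: group means were 12.36 to 13.20 in DN2-3 and 9.10 to 10.38 in DN4.

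The mean of the 58 genes separated the groups. It was lowest in BDC/B6g7 DN4, at 8.62 and 8.65 on the 2 arrays. Next came the non-Tg DN2-3 groups, with 9.11 and 9.31 in NOD and 9.27 and 9.28 in B6g7. BDC/NOD DN4 followed at 9.68 on both arrays, then BDC/B6g7 DN2-3 (9.76 and 9.85) and BDC/NOD DN2-3 (9.87 and 9.90). The non-Tg DN4 groups were highest, at 9.96 and 9.98 in B6g7 and 10.10 and 10.13 in NOD. The arrays of neighbouring groups in this order did not overlap, apart from the NOD and B6g7 DN2-3 groups, whose ranges crossed. In bulk samples, fewer cells expressing a gene and less RNA per cell cannot be told apart.

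**Figure D1:**
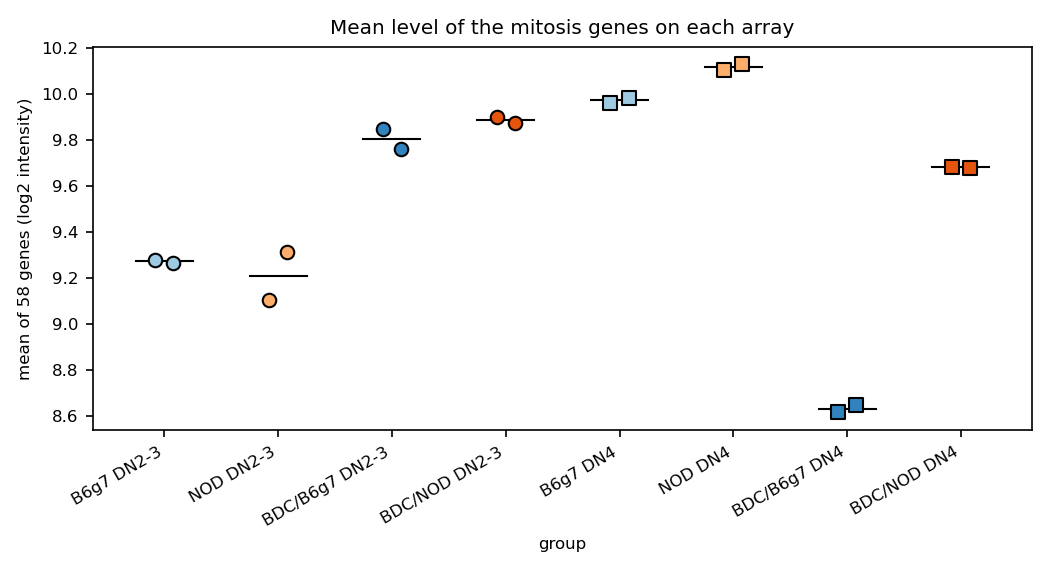
Mean log2 intensity of the 58 mitosis and spindle genes on each of the 16 arrays (y axis) by group (x axis), with a line at the mean of the 2 arrays. BDC/B6g7 DN4 sits lowest at 8.63, and the non-Tg DN4 groups sit highest at 9.97 and 10.12.

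Gene by gene, BDC/B6g7 DN4 had the lowest group mean for 52 of the 58 genes, NOD DN2-3 for 5 and B6g7 DN2-3 for 1. For 45 genes both BDC/B6g7 DN4 arrays lay below all other 14 arrays, where 19.9% of all genes tested did so. The highest group mean was that of NOD DN4 for 30 genes, B6g7 DN4 for 16, BDC/B6g7 DN2-3 for 9 and BDC/NOD DN2-3 for 3. As deviations from each gene's mean over the arrays, the 7 functional classes in BDC/B6g7 DN4 lay between -0.75 (chromosome condensation and Ki-67) and -1.05 (chromosomal passenger complex), and in NOD DN4 between 0.39 and 0.62.

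**Figure D2:**
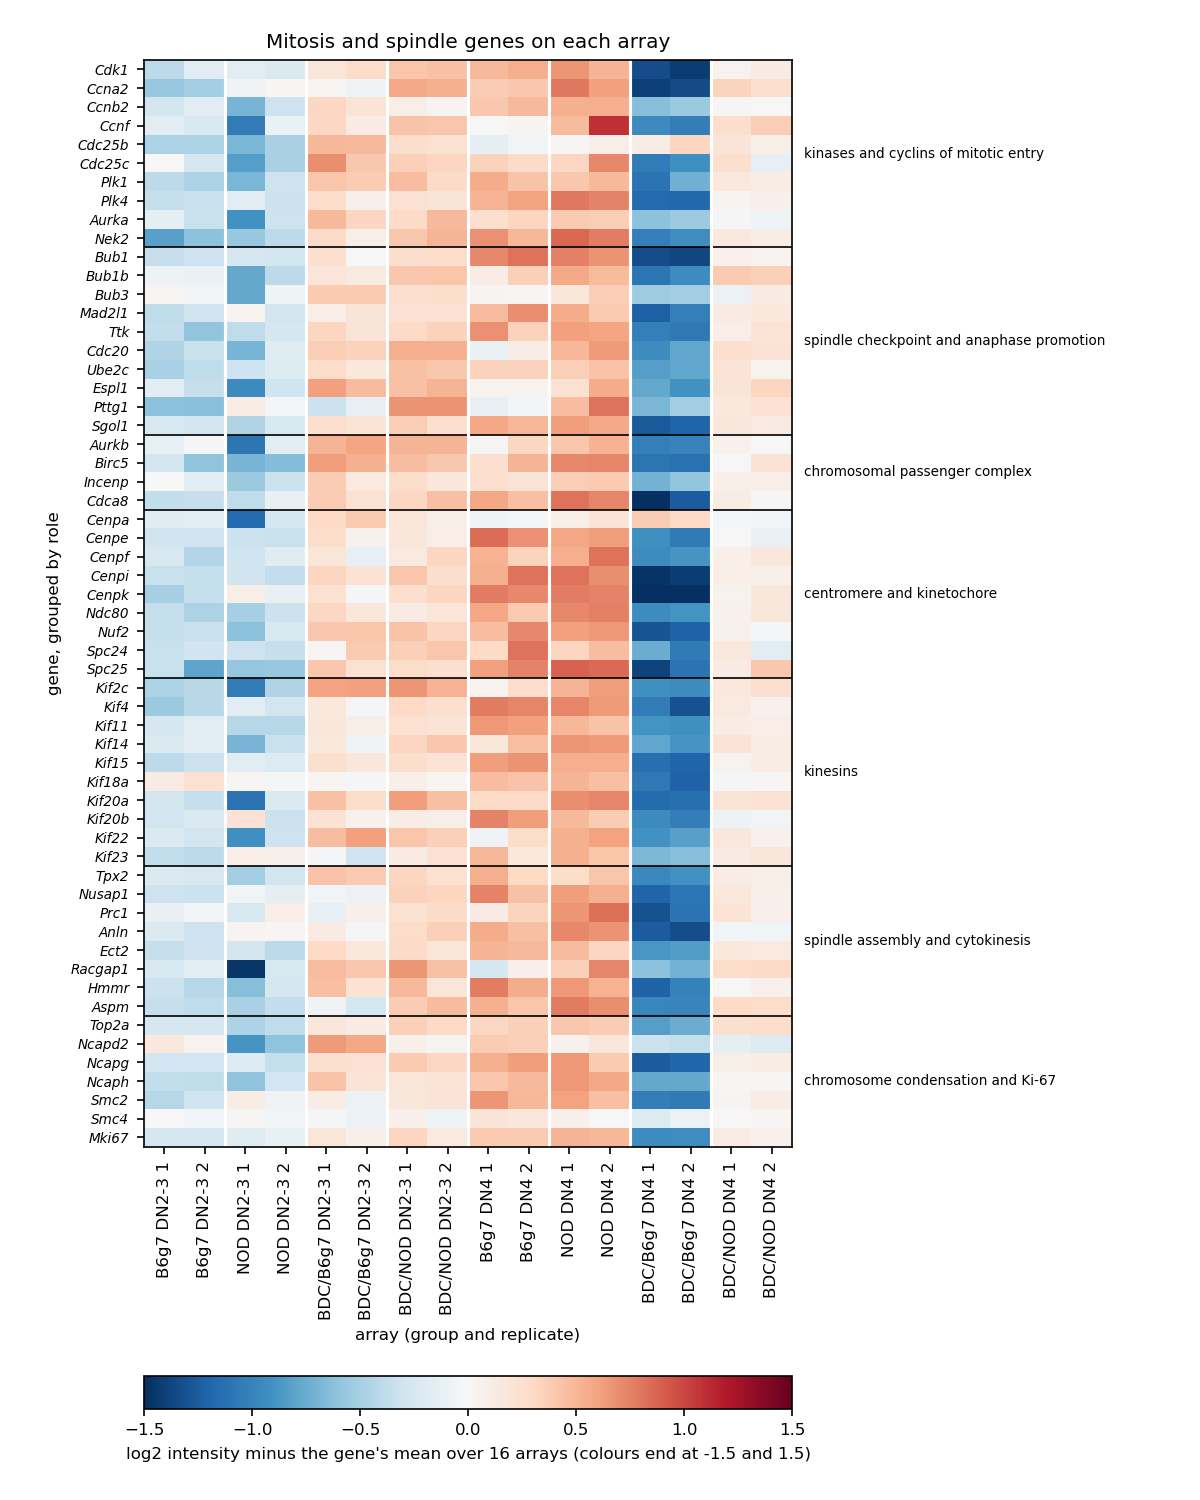
Each row is 1 of the 58 genes, ordered by role, and each column 1 of the 16 arrays; colour is log2 intensity minus the gene's mean over the 16 arrays, with colours ending at -1.5 and 1.5. The BDC/B6g7 DN4 columns are low in nearly every row, while Cenpa and Cdc25b depart from that pattern.

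Among the kinases of mitotic entry, Cdk1 encodes the kinase that, with its cyclins, drives the cell into mitosis. Cdk1 in DN2-3 read 10.28 and 10.50 in B6g7, 10.50 and 10.46 in NOD, 10.85 and 10.95 in BDC/B6g7 and 11.09 and 11.11 in BDC/NOD. Cdk1 in DN4 read 11.16 and 11.22 in B6g7, 11.34 and 11.18 in NOD, 9.34 and 9.25 in BDC/B6g7 and 10.72 and 10.80 in BDC/NOD. The BDC/B6g7 DN4 pair lay below every other array, and the 4 non-Tg DN4 arrays lay above the rest. Plk1, a kinase of centrosome maturation and spindle assembly, read 10.11 and 10.03 in B6g7, 9.82 and 10.19 in NOD, 10.91 and 10.88 in BDC/B6g7 and 10.96 and 10.78 in BDC/NOD in DN2-3. In DN4 it read 11.05 and 10.92 in B6g7, 10.90 and 10.99 in NOD, 9.40 and 9.78 in BDC/B6g7 and 10.66 and 10.62 in BDC/NOD. Again the BDC/B6g7 DN4 pair was the lowest, and both arrays of it lay below all 14 others. Aurka, the Aurora kinase of the spindle poles, read 8.81 and 8.62 in B6g7, 8.04 and 8.64 in NOD, 9.44 and 9.27 in BDC/B6g7 and 9.23 and 9.44 in BDC/NOD in DN2-3. Aurka in DN4 read 9.19 and 9.27 in B6g7, 9.34 and 9.32 in NOD, 8.33 and 8.40 in BDC/B6g7 and 8.92 and 8.88 in BDC/NOD. For Aurka the lowest single array was replicate 1 of NOD DN2-3, and the BDC/B6g7 DN4 pair came next. The transgene difference (BDC minus non-Tg) in B6g7 DN4 was -1.90 ± 0.10 (SE) for Cdk1, -1.40 ± 0.14 for Plk1 and -0.87 ± 0.15 for Aurka, at adjusted p = 4.4e-09, 1.6e-06 and 2.8e-04 in limma with Benjamini-Hochberg adjustment. In B6g7 DN2-3 the same difference ran the other way, at 0.51 ± 0.10, 0.83 ± 0.14 and 0.64 ± 0.15, and all 3 passed the test.

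In the spindle checkpoint, Bub1 encodes a kinase that signals from unattached kinetochores. Bub1 in DN2-3 read 10.10 and 10.14 in B6g7, 10.18 and 10.16 in NOD, 10.70 and 10.44 in BDC/B6g7 and 10.71 and 10.72 in BDC/NOD. Bub1 in DN4 read 11.16 and 11.26 in B6g7, 11.20 and 11.12 in NOD, 9.11 and 9.08 in BDC/B6g7 and 10.51 and 10.50 in BDC/NOD. The BDC/B6g7 DN4 arrays lay far below the other 14, and the 4 non-Tg DN4 arrays were highest. Cdc20, the activator of the anaphase-promoting complex, read 8.55 and 8.67 in B6g7, 8.31 and 8.82 in NOD, 9.37 and 9.35 in BDC/B6g7 and 9.55 and 9.55 in BDC/NOD in DN2-3. In DN4 Cdc20 read 8.91 and 9.11 in B6g7, 9.50 and 9.65 in NOD, 8.06 and 8.22 in BDC/B6g7 and 9.24 and 9.22 in BDC/NOD. The BDC/B6g7 DN4 pair was lowest for Cdc20 too, and both NOD DN4 arrays lay above both B6g7 DN4 arrays. In B6g7 DN4 the transgene difference was -2.12 ± 0.09 for Bub1 (limma adjusted p = 1.3e-09) and -0.87 ± 0.14 for Cdc20 (limma adjusted p = 1.3e-04). All 10 checkpoint and anaphase genes fell there, with a class median of -1.20.

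The chromosomal passenger complex corrects faulty attachments and directs cytokinesis. Its kinase gene Aurkb read 10.62 and 10.72 in B6g7, 9.66 and 10.57 in NOD, 11.25 and 11.34 in BDC/B6g7 and 11.26 and 11.26 in BDC/NOD in DN2-3. Aurkb in DN4 read 10.77 and 11.05 in B6g7, 11.16 and 11.26 in NOD, 9.72 and 9.75 in BDC/B6g7 and 10.81 and 10.74 in BDC/NOD. Apart from replicate 1 of NOD DN2-3, which was lowest of all, the BDC/B6g7 DN4 arrays lay below the rest. Birc5, which encodes survivin, read 8.05 and 7.75 in B6g7, 7.64 and 7.70 in NOD, 8.97 and 8.88 in BDC/B6g7 and 8.81 and 8.75 in BDC/NOD in DN2-3. Birc5 in DN4 read 8.60 and 8.85 in B6g7, 9.07 and 9.08 in NOD, 7.25 and 7.22 in BDC/B6g7 and 8.34 and 8.57 in BDC/NOD. Here the BDC/B6g7 DN4 pair was lowest and the BDC DN2-3 arrays stood with the non-Tg DN4 arrays. In B6g7 the BDC group was higher for Birc5 in DN2-3 (1.03 ± 0.12, adjusted p = 4.3e-05 in limma) and lower in DN4 (-1.49 ± 0.12, adjusted p = 2.3e-07 in limma). All 4 genes of the complex passed the test in both contrasts.

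At the kinetochore, Ndc80 encodes the subunit that grips the microtubule. Ndc80 in DN2-3 read 8.19 and 8.08 in B6g7, 8.05 and 8.23 in NOD, 8.87 and 8.72 in BDC/B6g7 and 8.68 and 8.73 in BDC/NOD. Ndc80 in DN4 read 9.13 and 8.95 in B6g7, 9.27 and 9.30 in NOD, 7.61 and 7.65 in BDC/B6g7 and 8.62 and 8.72 in BDC/NOD. As for Cdk1, BDC/B6g7 DN4 lay below every other array and the non-Tg DN4 arrays lay on top. Cenpa, the histone variant that marks centromeres, read 9.45 and 9.48 in B6g7, 8.46 and 9.38 in NOD, 9.93 and 10.03 in BDC/B6g7 and 9.81 and 9.72 in BDC/NOD in DN2-3. Cenpa in DN4 read 9.56 and 9.60 in B6g7, 9.72 and 9.84 in NOD, 10.02 and 9.93 in BDC/B6g7 and 9.60 and 9.60 in BDC/NOD. Cenpa did not follow the list: both BDC/B6g7 DN4 arrays lay above the B6g7 DN4 arrays, by 0.39 ± 0.20 in the fit, which missed the threshold (limma adjusted p = 0.107), where Ndc80 fell by 1.41 ± 0.10.

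Of the kinesins, Kif11 encodes the motor that pushes spindle poles apart. Kif11 in DN2-3 read 11.00 and 11.08 in B6g7, 10.83 and 10.82 in NOD, 11.42 and 11.35 in BDC/B6g7 and 11.48 and 11.44 in BDC/NOD. Kif11 in DN4 read 11.90 and 11.86 in B6g7, 11.75 and 11.67 in NOD, 10.36 and 10.33 in BDC/B6g7 and 11.36 and 11.34 in BDC/NOD. Both BDC/B6g7 DN4 arrays were lowest, and the B6g7 DN4 arrays were highest. Kif20a, a motor of the central spindle in cytokinesis, read 9.33 and 9.26 in B6g7, 8.50 and 9.39 in NOD, 10.04 and 9.89 in BDC/B6g7 and 10.24 and 10.06 in BDC/NOD in DN2-3. Kif20a in DN4 read 9.89 and 9.90 in B6g7, 10.30 and 10.34 in NOD, 8.45 and 8.47 in BDC/B6g7 and 9.81 and 9.83 in BDC/NOD. The BDC/B6g7 DN4 pair was lowest, and replicate 1 of NOD DN2-3 read nearly as low. In B6g7 DN4 all 10 kinesins fell, with Kif11 at -1.54 ± 0.08 (limma adjusted p = 4.7e-09), Kif20a at -1.43 ± 0.20 and a class median of -1.49.

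Among the genes of chromosome condensation, Top2a encodes the topoisomerase that untangles sister chromatids. Top2a in DN2-3 read 10.72 and 10.74 in B6g7, 10.53 and 10.61 in NOD, 11.16 and 11.12 in BDC/B6g7 and 11.35 and 11.29 in BDC/NOD. Top2a in DN4 read 11.30 and 11.35 in B6g7, 11.40 and 11.37 in NOD, 10.16 and 10.24 in BDC/B6g7 and 11.23 and 11.27 in BDC/NOD. The BDC/B6g7 DN4 arrays were the lowest of all 16. Mki67, the gene of the Ki-67 antigen that coats mitotic chromosomes and is used as a proliferation marker, read 11.16 and 11.16 in B6g7, 11.24 and 11.32 in NOD, 11.61 and 11.51 in BDC/B6g7 and 11.75 and 11.57 in BDC/NOD in DN2-3. Mki67 in DN4 read 11.81 and 11.82 in B6g7, 11.93 and 11.92 in NOD, 10.48 and 10.50 in BDC/B6g7 and 11.54 and 11.49 in BDC/NOD. Its lowest arrays were the same pair. The transgene difference in B6g7 DN4 was -1.12 ± 0.08 for Top2a and -1.33 ± 0.09 for Mki67, and in NOD DN4 -0.13 ± 0.08, not past the threshold, and -0.41 ± 0.09. Smc4, a condensin subunit, moved least of the list, with group means within 0.33 of each other.

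**Figure D3:**
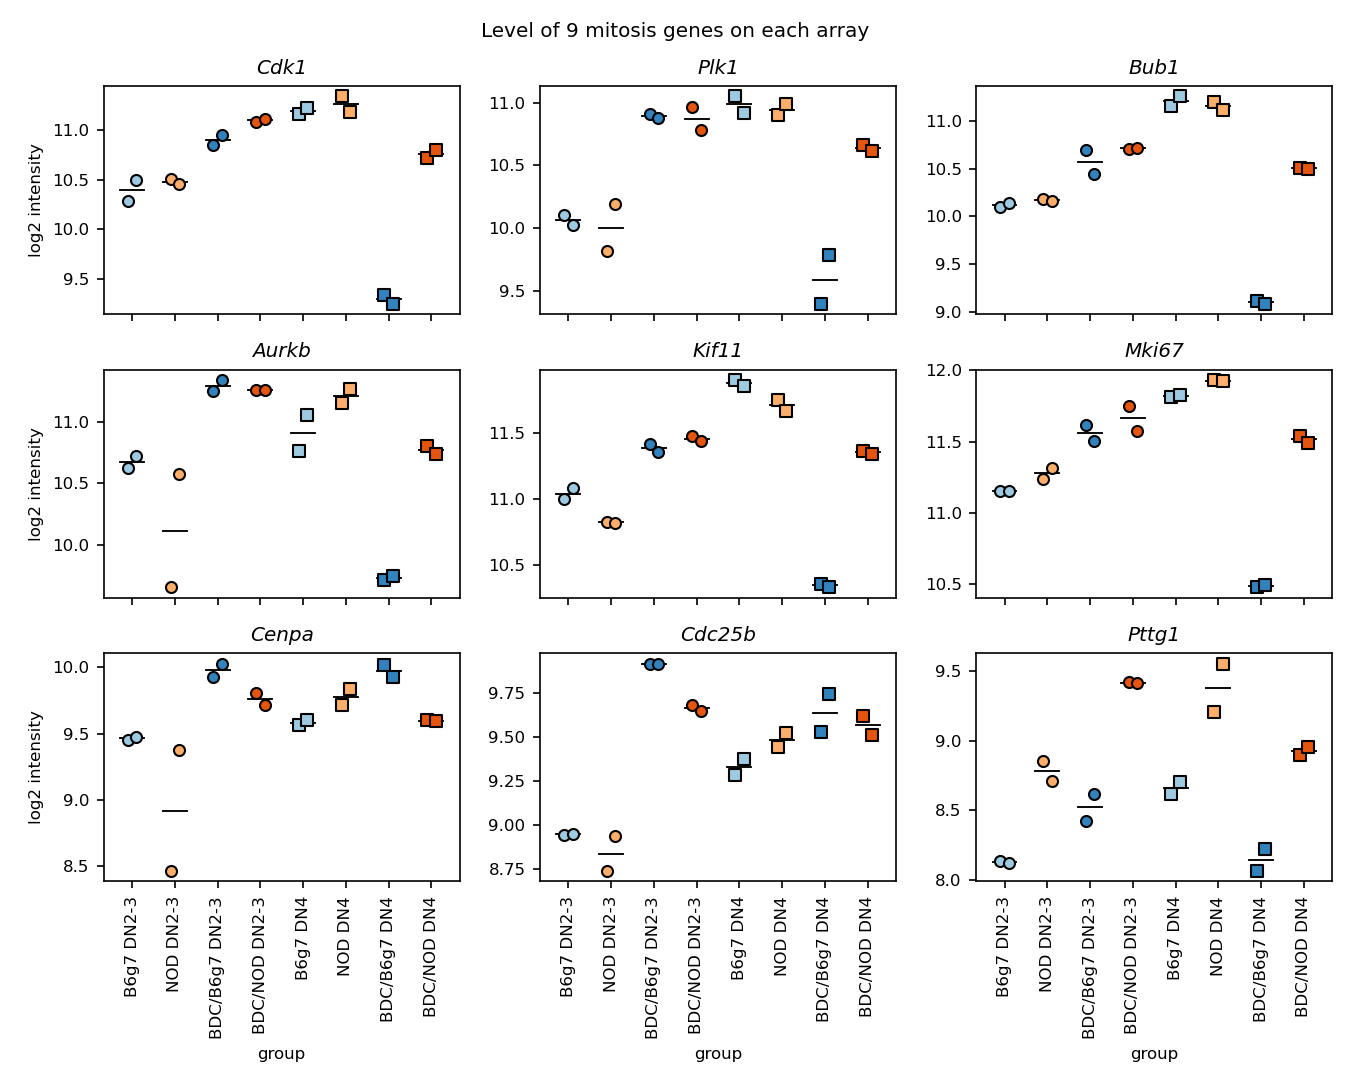
Log2 intensity (y axis) on each array by group (x axis) for Cdk1, Plk1, Bub1, Aurkb, Kif11, Mki67, Cenpa, Cdc25b and Pttg1, with circles for DN2-3, squares for DN4 and a line at the mean of 2 arrays. In the first 6 genes BDC/B6g7 DN4 drops well below B6g7 DN4, Cenpa and Cdc25b show no such drop, and Pttg1 is higher in NOD than in B6g7 in every genotype and stage.

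The stage comparison asks what changes between the CD25+ and CD25- double-negative cells. In non-Tg cells the list was higher in DN4. In B6g7, 48 of 58 genes rose and none fell, against 17.8% and 25% of all genes tested, with a median difference of 0.79 over the list and -0.04 over all genes. The largest were Nek2, a kinase of centrosome separation, with 8.01 and 8.20 in DN2-3 and 9.51 and 9.32 in DN4 (1.30 ± 0.11, 2.47-fold, limma adjusted p = 2.1e-06). Spc25, an Ndc80 complex subunit, rose from 8.30 and 7.84 to 9.24 and 9.37 (1.24 ± 0.15). Kif4, a chromosome-bound kinesin, rose from 8.59 and 8.73 to 9.91 and 9.87 (1.24 ± 0.11). None of the 3 overlapped between the stages. Cenpk, a subunit of the inner kinetochore, rose by 1.18 ± 0.11 and Bub1 by 1.09 ± 0.09. The 10 genes that missed the threshold were Bub3, Bub1b, Espl1, Racgap1, Prc1, Cenpa, Smc4, Ccnf, Aurkb and Kif22.

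In NOD the same comparison raised 57 of 58 genes, all but Smc4, against 26.3% of all genes, with none lower against 12.3%, and a list median of 0.92 against 0.10. Spc25 read 8.05 and 8.06 in DN2-3 and 9.52 and 9.48 in DN4 (1.44 ± 0.15, 2.72-fold, limma adjusted p = 1.1e-05). Birc5 rose by 1.40 ± 0.12. Racgap1, a GTPase-activating protein of the cleavage furrow, read 7.57 and 8.79 and 9.39 and 9.76 (1.40 ± 0.27). Its low DN2-3 value lay on the array that stood apart: without that array the rise was 0.79 (limma adjusted p = 0.00128). Kif20a rose by 1.38 ± 0.20, or by 0.93 without that array, and Ccnf, a cyclin of an SCF ubiquitin ligase, by 1.36 ± 0.24, or 0.89 without it. The count of 57 was the same without it, with a median of 0.80, and fitted on these 4 arrays alone 33 genes passed. Both strains shared 48 of the rises, where 11.1% of all genes rose in both.

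In DN2-3 cells the question is whether the TCR transgene changes the list at the earlier stage, and it was higher with the transgene in both strains. In B6g7 DN2-3, 46 of 58 genes rose and none fell, against 16.8% and 12.5% of all genes, with a median of 0.52 over the list and 0.03 over all genes. Kif2c, a kinesin that depolymerises microtubules at centromeres, read 8.39 and 8.45 in non-Tg and 9.47 and 9.48 in BDC (1.05 ± 0.15, 2.07-fold, limma adjusted p = 2.2e-04). Cdc25b, a phosphatase that activates Cdk1, read 8.94 and 8.95 and 9.91 and 9.91 (0.97 ± 0.10). Both pairs of arrays were well apart in these genes. Birc5 rose by 1.03 ± 0.12, Nek2 by 0.91 ± 0.11 and Spc25 by 0.88 ± 0.15. The 12 genes that missed the threshold were Bub1b, Bub3, Prc1, Nusap1, Aspm, Racgap1, Cenpa, Kif14, Kif18a, Kif23, Smc4 and Ccnf, of which Kif18a, a motor of chromosome alignment, read lowest at -0.18 ± 0.08.

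In NOD DN2-3, 52 of 58 genes rose with the transgene and none fell, against 21.5% and 14.1% of all genes, with a median of 0.66 against 0.06. Racgap1 rose by 1.41 ± 0.27, Kif2c by 1.34 ± 0.15, Kif20a by 1.21 ± 0.20, Aurkb by 1.15 ± 0.21 and Espl1, which encodes separase, by 1.11 ± 0.17. Without replicate 1 of NOD DN2-3 these were 0.80, 1.04, 0.76, 0.69 and 0.78, still past the threshold in limma, and 53 genes passed with a median of 0.58. Kif23, Kif18a, Kif20b, Smc2, Smc4 and Prc1 missed the threshold with all arrays. Of the list, 44 genes rose in both strains, where 11.1% of all genes did. With the 4 male arrays left out, so that a BDC group was 1 array, 12 genes passed in B6g7 (median 0.50) and 29 in NOD (median 0.63). Fitted on the 4 arrays compared alone, 6 passed in NOD.

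In DN4 cells the transgene comparison ran the other way. In B6g7 DN4, 55 of 58 genes fell and 1 rose, against 29.2% and 30.1% of all genes tested, with a median of -1.42 over the list and -0.02 over all genes. Cenpk read 9.58 and 9.53 in non-Tg and 7.29 and 7.18 in BDC (-2.32 ± 0.11, 4.99-fold lower, limma adjusted p = 1.9e-09). Cenpi, a partner of Cenpk in the inner kinetochore, read 9.09 and 9.37 and 7.08 and 7.12 (-2.13 ± 0.10, 4.36-fold lower). Bub1 fell by 2.12 ± 0.09, 4.34-fold lower. In each of these the lowest B6g7 DN4 array lay well above the higher BDC/B6g7 DN4 array. Cdca8, the borealin subunit of the chromosomal passenger complex, read 9.90 and 9.77 and 7.71 and 8.07 (-1.94 ± 0.13), and Kif4 fell by 1.93 ± 0.11. By class, all 10 checkpoint and anaphase genes, all 10 kinesins, all 7 condensation genes and all 4 passenger genes fell, as did 8 of 9 centromere and kinetochore genes, 9 of 10 kinases and cyclins and 7 of 8 spindle assembly and cytokinesis genes. The class medians lay between -1.20 and -1.75.

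The 3 exceptions in B6g7 DN4 were Cdc25b, Cenpa and Racgap1. Cdc25b read 9.28 and 9.38 in non-Tg and 9.53 and 9.74 in BDC and rose by 0.31 ± 0.10 (limma adjusted p = 0.0155). That call was lost without replicate 1 of B6g7 DN4 (0.26, adjusted p = 0.0915 in limma) and without replicate 2 of BDC/B6g7 DN4 (0.20, adjusted p = 0.157 in limma). Racgap1 read 8.77 and 9.12 and 8.42 and 8.33, a difference of -0.57 ± 0.27 with an adjusted p of 0.0904 in limma. Without replicate 1 of NOD DN2-3, which enters only through the shared estimate of the spread, all 58 genes passed in this comparison, 56 lower and 2 higher.

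In NOD DN4 the transgene difference was of the same direction and smaller. Of the 58 genes, 35 fell and none rose, against 14.8% and 10.6% of all genes, with a median of -0.45 against -0.03. Anln, the furrow scaffold anillin, read 10.20 and 10.15 in non-Tg and 9.44 and 9.44 in BDC (-0.73 ± 0.09, 1.66-fold lower, limma adjusted p = 5.8e-05). Plk4, the kinase of centriole duplication, read 10.81 and 10.76 and 10.06 and 10.10 (-0.71 ± 0.09). Neither gene overlapped between the groups. Cdca8 fell by 0.71 ± 0.13, Nek2 by 0.68 ± 0.11 and Cenpi by 0.67 ± 0.10. Plk1 (-0.30 ± 0.14), Aurka (-0.43 ± 0.15), Aurkb (-0.44 ± 0.21), Cdc20 (-0.34 ± 0.14) and Kif20a (-0.50 ± 0.20) missed the threshold. All 35 also fell in B6g7 DN4, where 13.2% of all genes fell in both strains. Without the 4 male arrays 8 genes passed in NOD DN4, with a median of -0.46, and without replicate 1 of NOD DN2-3, 50 passed.

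**Figure D4:**
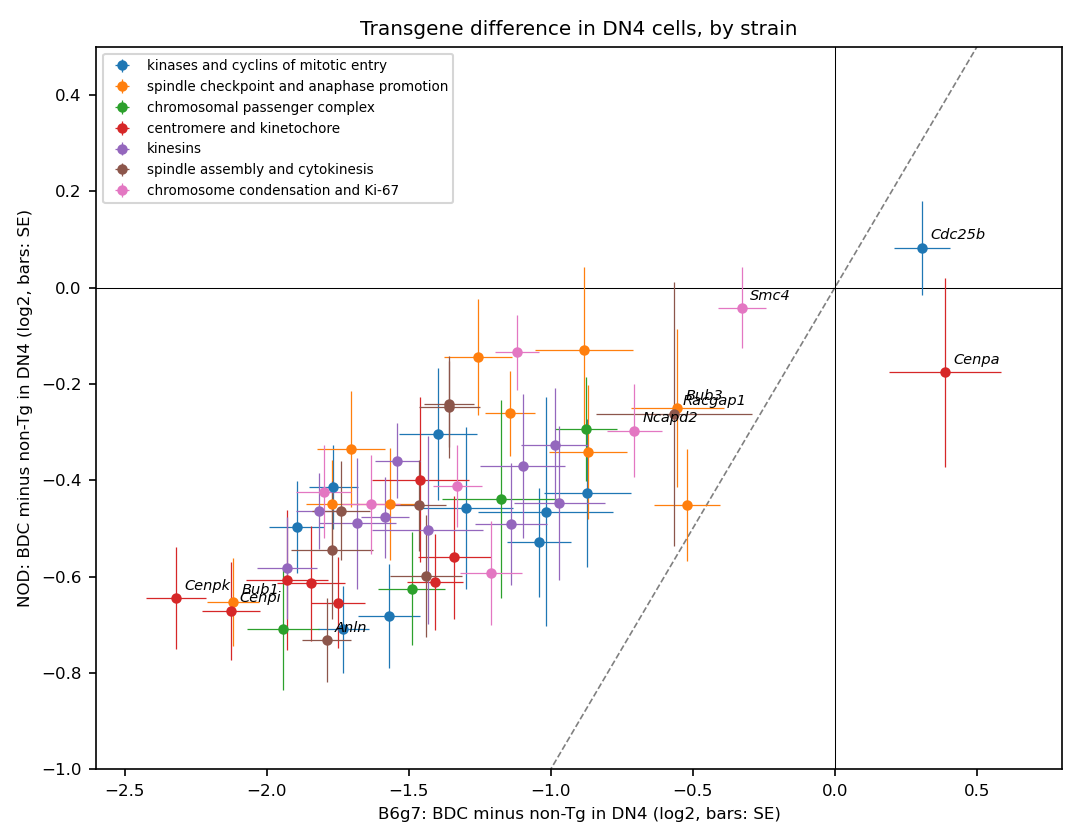
BDC minus non-Tg log2 difference in DN4 cells for each of the 58 genes, B6g7 on the x axis and NOD on the y axis, with standard errors as bars and a dashed line of equality; the 2 strains share no arrays. Most genes lie above the line, near -1.42 in B6g7 and -0.45 in NOD at the medians, and Cenpa and Cdc25b lie apart.

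The difference between the strains in this effect was tested as the interaction of strain and transgene. In DN4 it was positive and passed for 46 of 58 genes, so the list fell less with the transgene in NOD than in B6g7, against 9.2% of all genes positive and 10.9% negative, with a median of 1.00 over the list. It was 1.68 ± 0.15 for Cenpk (adjusted p = 2.7e-05 in limma), 1.47 ± 0.13 for Bub1 and 1.45 ± 0.15 for Cenpi. The 12 that missed the threshold were Cenpa, Cdc25b, Pttg1, Smc4, Bub3, Racgap1, Ncapd2, Aurka, Kif22, Cdc20, Ccnf and Aurkb. In DN2-3 the same interaction passed for 1 gene, Aspm, a spindle pole protein (0.66 ± 0.13, limma adjusted p = 0.0327), against 0.327% of all genes positive and 0.823% negative. Aspm read 8.95 and 8.92 in B6g7 DN2-3 and 9.25 and 9.03 in BDC/B6g7, and 8.81 and 8.93 in NOD and 9.68 and 9.78 in BDC/NOD, so that the BDC/NOD arrays stood above the other 6. The DN2-3 count was 0 without any 1 of these arrays: both of B6g7 DN2-3 and BDC/NOD DN2-3, replicate 2 of BDC/B6g7 DN2-3, and all DN4 arrays but those of B6g7. It was 18 without replicate 2 of NOD DN2-3, and still Aspm alone, at 0.60, without replicate 1. Without the 4 male arrays 24 genes passed in DN4, with a median of 0.98.

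Set directly against each other in BDC DN4, NOD cells had more of the list than B6g7 cells: 54 of 58 genes were higher and none lower, against 25.8% and 15.3% of all genes, with a median of 1.10 over the list and 0.05 over all genes. Cenpk read 7.29 and 7.18 in BDC/B6g7 and 8.85 and 8.98 in BDC/NOD (1.68 ± 0.11, 3.21-fold, limma adjusted p = 1.3e-07). Ccna2, which encodes cyclin A, read 10.13 and 10.19 and 11.87 and 11.78 (1.67 ± 0.09, 3.18-fold). The pairs did not overlap for either gene. Cenpi was higher by 1.53 ± 0.10, Spc25 by 1.51 ± 0.15 and Cdca8 by 1.49 ± 0.13. The 4 genes that missed the threshold were Cenpa (-0.37 ± 0.20), Cdc25b (-0.07 ± 0.10), Smc4 (0.15 ± 0.08) and Ncapd2, a condensin subunit (0.16 ± 0.10). This comparison shares its BDC/B6g7 DN4 arrays with the transgene comparison in B6g7.

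In BDC cells the stage comparison reversed its sign in B6g7. From DN2-3 to DN4, 56 of 58 genes fell and none rose, against 30.4% and 20.4% of all genes, with a median of -1.18 over the list and -0.05 over all genes. Cdca8 read 9.70 and 9.54 in DN2-3 and 7.71 and 8.07 in DN4 (-1.73 ± 0.13, 3.31-fold lower, limma adjusted p = 2.6e-07). Cenpi fell by 1.72 ± 0.10, Birc5 by 1.69 ± 0.12, Cenpk by 1.68 ± 0.11 and Nuf2, a partner of Ndc80, by 1.66 ± 0.12. Cenpa (-0.01 ± 0.20) and Smc4 (-0.09 ± 0.08) missed the threshold. The interaction of transgene and stage passed for 57 of 58 genes in B6g7, all negative and all but Cenpa, with a median of -1.98, against 27.0% of all genes negative and 27.3% positive. It was -2.86 ± 0.15 for Cenpk (limma adjusted p = 2.0e-08), -2.80 ± 0.21 for Spc25 and -2.75 ± 0.15 for Cenpi.

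In BDC NOD cells the stages differed little. Pttg1, which encodes securin, fell by 0.49 ± 0.12 from DN2-3 to DN4 (limma adjusted p = 0.0157), Anln by 0.36 ± 0.09 and Cdk1 by 0.34 ± 0.10. These 3 of 58 genes passed, all lower, against 3.41% of all genes lower and 7.67% higher, with a median of -0.18 over the list and -0.02 over all genes. None passed without replicate 1 or without replicate 2 of either BDC/NOD group, and 13 passed, all lower, without either replicate of NOD DN2-3, whose arrays enter through the shared estimate of the spread. The interaction of transgene and stage in NOD was negative and passed for 56 of 58 genes, against 20.5% of all genes negative and 12.9% positive, with a median of -1.10. It was -1.73 ± 0.17 for Birc5 (limma adjusted p = 1.4e-05), -1.71 ± 0.21 for Kif2c and -1.71 ± 0.28 for Kif20a. Without replicate 1 of NOD DN2-3 these were -1.70, -1.41 and -1.26, and again 56 genes passed, with a median of -1.03. Kif23 (-0.41 ± 0.17) and Smc4 (-0.06 ± 0.12) missed the threshold.

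**Figure D5:**
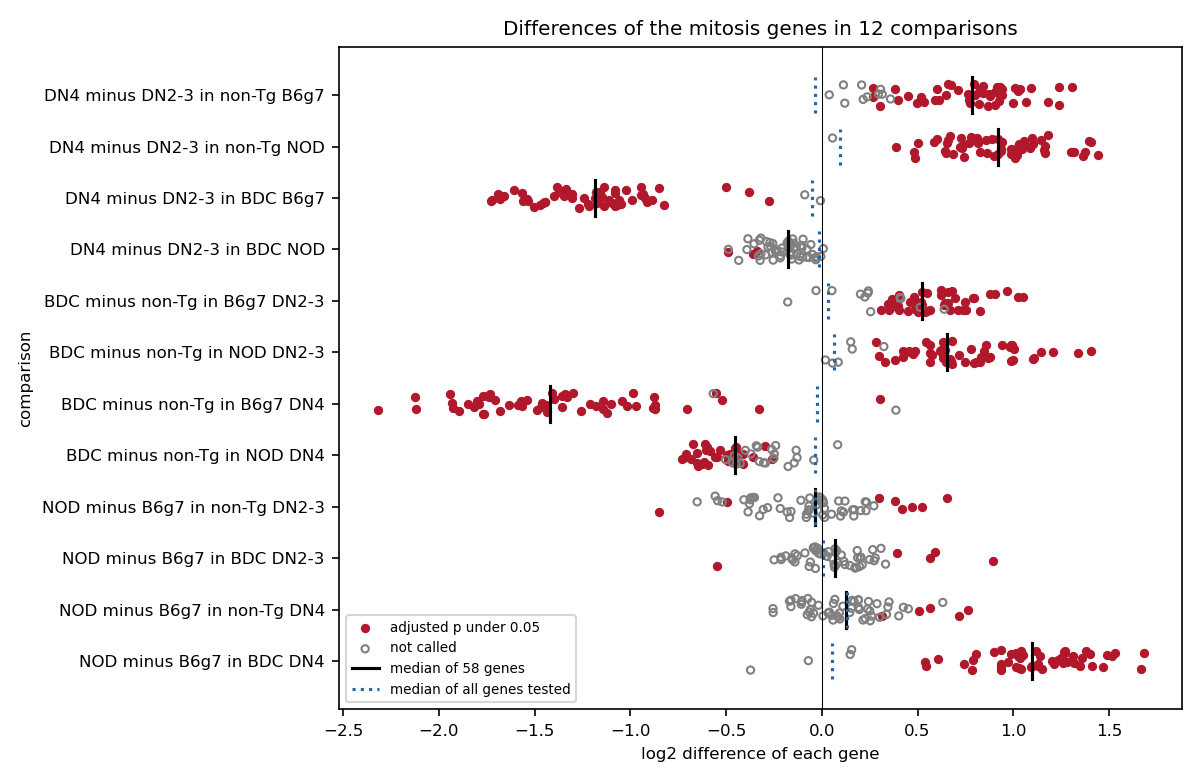
Log2 difference of each of the 58 genes (x axis) in the 12 comparisons of 2 groups (y axis). Red points are genes past the limma threshold and open grey points the others. A black line marks the median of the 58 genes and a blue dotted line that of all genes tested. The list lies to the right of 0 in the stage comparisons of non-Tg cells and the DN2-3 transgene comparisons. It lies furthest to the left of 0 in the DN4 transgene comparison in B6g7 (median -1.42).

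Outside BDC DN4 the strains differed in few of these genes. In non-Tg DN2-3, 6 were higher and 2 lower in NOD, against 5% and 5.58% of all genes, and the median was -0.04 over both the list and all genes. The higher genes were Pttg1 (0.66 ± 0.12), Ccna2 (0.52 ± 0.09), Kif23 (0.47 ± 0.12), Cenpk (0.42 ± 0.11), Smc2 (0.38 ± 0.10) and Anln, and the lower ones Ncapd2 (-0.85 ± 0.10, limma adjusted p = 8.9e-05) and the checkpoint kinase gene Bub1b (-0.50 ± 0.12). Without replicate 1 of NOD DN2-3, Ccna2 (0.56), Pttg1 (0.59) and Ncapd2 (-0.71) still passed and the other 5 did not, while 27 passed without replicate 2, 9 higher and 18 lower. Leaving out either B6g7 DN2-3 array gave a count of 3, and centring each array on its median gave 2 higher and 2 lower. In non-Tg DN4, 5 were higher in NOD, against 14% of all genes, and none was lower against 4.75%. They were Ccnf (0.76 ± 0.24), Pttg1 (0.72 ± 0.12), Cdc20 (0.56 ± 0.14), the midzone protein gene Prc1 (0.51 ± 0.13) and Ccna2 (0.32 ± 0.09), and the median of all genes was itself shifted by 0.13, the same as that of the list. That count was 1 without replicate 1 of B6g7 DN4 or without replicate 2 of NOD DN4, and 20 without either replicate of NOD DN2-3. After a further quantile normalization it was 2 higher and 1 lower. In BDC DN2-3, 4 were higher in NOD, against 3.53% of all genes, and 1 lower, against 5.66%: Pttg1 (0.90 ± 0.12), Aspm (0.59 ± 0.09), Ccna2 (0.56 ± 0.09), the spindle protein gene Nusap1 (0.39 ± 0.10) and, lower, Ncapd2 (-0.55 ± 0.10). The Nusap1 call was lost without any 1 of the 4 arrays compared, with adjusted p-values of 0.0953 to 0.150 in limma.

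Pttg1, Ccna2 and Ncapd2 are given array by array for their strain differences, singled out after their values were seen. The strain counts outside BDC DN4 rest on few genes and are not read as particular to the list. In BDC DN4, where 54 of 58 genes were higher in NOD (median 1.10), Pttg1 and Ccna2 moved with most of the list. Pttg1 in DN2-3 read 8.13 and 8.12 in B6g7, 8.85 and 8.71 in NOD, 8.43 and 8.62 in BDC/B6g7 and 9.42 and 9.41 in BDC/NOD. Pttg1 in DN4 read 8.62 and 8.71 in B6g7, 9.21 and 9.55 in NOD, 8.06 and 8.22 in BDC/B6g7 and 8.90 and 8.96 in BDC/NOD. At each stage and genotype both NOD arrays lay above both B6g7 arrays. Ccna2 in DN2-3 read 10.97 and 11.02 in B6g7, 11.48 and 11.56 in NOD, 11.56 and 11.48 in BDC/B6g7 and 12.10 and 12.07 in BDC/NOD. Ccna2 in DN4 read 11.91 and 11.94 in B6g7, 12.33 and 12.15 in NOD, 10.13 and 10.19 in BDC/B6g7 and 11.87 and 11.78 in BDC/NOD. It had the same order in all 4 contexts, and it also fell in BDC/B6g7 DN4 as the rest of the list did. Pttg1 and Ccna2 were the 2 genes of the list higher in NOD in all 4 contexts, where 1.09% of all genes were, and Pttg1 passed the test in all 12 comparisons of 2 groups. The non-Tg DN4 call of Ccna2 was lost after a further quantile normalization (0.18, adjusted p = 0.166 in limma) and without any 1 of the 4 arrays compared (adjusted p = 0.0512 to 0.156 in limma). Ncapd2 read 10.60 and 10.50 in B6g7, 9.56 and 9.83 in NOD, 11.08 and 11.02 in BDC/B6g7 and 10.52 and 10.49 in BDC/NOD in DN2-3. In DN4 Ncapd2 read 10.82 and 10.80 in B6g7, 10.50 and 10.61 in NOD, 10.12 and 10.09 in BDC/B6g7 and 10.29 and 10.23 in BDC/NOD. It was lower in NOD in both DN2-3 contexts, with no overlap between the strains, and missed the threshold in DN4 (-0.25 ± 0.10 in non-Tg and 0.16 ± 0.10 in BDC).

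Likeness to the list was measured as Pearson's r between a gene and the mean of the other 57 over the 8 group means, which share the arrays of each group, so it is a description. It was 0.9 or more for 48 of the 58 genes, with a median of 0.96. The least like were Cenpa (0.13), Cdc25b (0.27), Ncapd2 (0.61), Pttg1 (0.71), Smc4 (0.73) and Racgap1 (0.81). Cdc25b in DN2-3 read 8.94 and 8.95 in B6g7, 8.74 and 8.94 in NOD, 9.91 and 9.91 in BDC/B6g7 and 9.68 and 9.65 in BDC/NOD. Cdc25b in DN4 read 9.28 and 9.38 in B6g7, 9.44 and 9.52 in NOD, 9.53 and 9.74 in BDC/B6g7 and 9.62 and 9.51 in BDC/NOD. The 8 BDC arrays read 9.51 to 9.91 at both stages, the non-Tg DN4 arrays 9.28 to 9.52, and the non-Tg DN2-3 arrays lay lowest. Smc4 passed in 1 of the 12 comparisons of 2 groups, the transgene comparison in B6g7 DN4 (-0.33 ± 0.08), and Cenpa in 2, the rises with the transgene in NOD DN2-3 and with stage in non-Tg NOD. Both Cenpa rises involve replicate 1 of NOD DN2-3: with it they were 0.85 ± 0.20 and 0.86 ± 0.20, and without it 0.39 and 0.40, still past the threshold in limma.

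In the medians that follow, genes with the searched promoter letters and genes with neither changed in the same direction. Other forms of the 2 elements were not searched for, so a gene with neither motif may still hold such a form. In B6g7 DN4 the 33 genes with both motifs anywhere in the window had a median transgene difference of -1.33, ranging from -2.12 (Bub1) to 0.39 (Cenpa), and the 26 of them with a CHR between -60 and +30 a median of -1.39. The 8 with neither motif anywhere in the window, which were Nuf2, Kif18a, Nusap1, Ncaph, Plk4, Mad2l1, Pttg1 and Birc5, had a median of -1.64, ranging from -1.84 to -0.52. Between the stages of non-Tg B6g7 the medians were 0.71 for the 33 and 0.86 for the 8, and with the transgene in B6g7 DN2-3 they were 0.51 and 0.50. These are medians of overlapping ranges and were not tested.

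Other genes of the division machinery, from lists outside the 58, moved with them in part. The counts stand beside 29.2% of all genes tested lower and 30.1% higher. In B6g7 DN4 with the transgene, 29 of 31 DNA replication genes fell and none rose (median -1.35), among them Rfc4 of the clamp loader (-2.28 ± 0.09), Tyms, thymidylate synthase (-2.03 ± 0.09), and Mcm10 (-2.02 ± 0.09). Of 26 other kinetochore genes 21 fell, led by Ska3 (-2.28 ± 0.10), Cenpp (-2.20 ± 0.14) and Cenpn (-2.07 ± 0.11), and none rose. Of 24 centrosome and spindle pole genes 16 fell, such as Haus1 of the augmin complex (-1.65 ± 0.12) and Stil (-1.59 ± 0.11), and Numa1 rose (0.53 ± 0.10). Cohesin and its regulators were split: 10 of 14 fell, led by the cohesin acetyltransferase gene Esco2 (-2.76 ± 0.19) and Sgol2, a protector of centromeric cohesin (-2.22 ± 0.17), while the cohesin loader genes Mau2 (0.97 ± 0.14) and Nipbl (0.40 ± 0.09) rose. Among 15 genes of the anaphase-promoting complex and its control 7 fell, led by its inhibitor Fbxo5 (-1.86 ± 0.13), and its activator Fzr1 rose (0.43 ± 0.14), with a median of -0.13, the count nearest to the share of all genes.

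Regulators upstream of the list also moved, read against the same 29.2% and 30.1%. Of 18, 12 fell in B6g7 DN4 with the transgene, among them the E2F family genes E2f8 (-1.87 ± 0.17), E2f2 (-1.71 ± 0.15) and E2f7 (-1.55 ± 0.12), and 1 rose, Rbl2, which encodes the pocket protein p130 of the DREAM complex (0.93 ± 0.10). Foxm1 fell by 1.21 ± 0.10 and Mybl2, which encodes B-MYB, by 0.83 ± 0.18, both singled out after their values were seen. Of 11 inhibitory kinases and phosphatase regulators 6 fell, including Mastl, the Greatwall kinase gene (-2.09 ± 0.09), and Wee1, which restrains Cdk1 (-1.18 ± 0.17), and 2 rose, including the phosphatase gene Cdc14a (1.06 ± 0.12). Between the strains in BDC DN4, where 25.8% of all genes were higher in NOD and 15.3% lower, most of these lists were largely higher in NOD: all 31 replication genes (median 1.17, Tyms at 1.71 ± 0.09), 22 of 26 kinetochore genes, 17 of 24 centrosome genes, 10 of 14 cohesin genes, and 13 of 18 upstream regulators, with Rbl2 lower (-0.50 ± 0.10). Nearer that background were 7 of 15 genes of the anaphase-promoting complex and 5 of 11 inhibitory kinases and phosphatase regulators, of which 2 were lower. The 2 comparisons share the BDC/B6g7 DN4 arrays.

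Markers of other thymic populations differed between the same groups. The share of all genes higher with the transgene was 16.8% in B6g7 DN2-3 and 21.5% in NOD DN2-3. It was 30.1% in B6g7 DN4 and 10.6% in NOD DN4. Of 6 gamma-delta T cell markers tested, 5 were higher with the transgene in each of the 4 transgene comparisons. Medians were 1.37 and 1.25 in B6g7 and NOD DN2-3 and 3.72 and 3.04 in DN4. In B6g7 DN4 the 5 were Sox13, Etv5, Cd163l1, Maf and Blk. Zbtb16, the remaining marker there, had group means of 7.50 in non-Tg and 7.17 in BDC. Its means were 7.17 and 7.14 in B6g7 DN2-3, 7.57 and 8.24 in NOD DN2-3, and 7.48 and 7.89 in NOD DN4. The summed intensity of all 7 gamma-delta markers matched was 16220 to 17430 on the BDC/B6g7 DN4 arrays and 9176 to 9826 on BDC/NOD DN4. It was 1417 to 1464 on B6g7 DN4 and 1151 to 1213 on NOD DN4. In DN2-3 it was 6639 to 6677 on BDC/B6g7, 4412 to 4637 on BDC/NOD, 1473 to 1484 on B6g7 and 1274 to 1385 on NOD. Il23r was at background in every group. Of 7 mature T cell markers, 6 were higher with the transgene in B6g7 DN4 and 5 in NOD DN4, with summed intensities of 10500 to 11360 in BDC/B6g7 DN4, 5871 to 5978 in BDC/NOD DN4, 3146 to 3326 in B6g7 DN4 and 2638 to 2742 in NOD DN4. 

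Stage markers differed too. Of 10 DN2-3 stage markers, 8 were lower with the transgene in DN2-3 of each strain and none higher. Of all genes, 12.5% were lower in B6g7 DN2-3 and 14.1% in NOD DN2-3. In B6g7 DN4 the markers split, 4 higher and 5 lower, against 30.1% and 29.2% of all genes. There the recombinase gene Rag1 had group means of 10.20 in B6g7 and 6.76 in BDC/B6g7. Kit went from 8.32 to 9.61, Hes1 from 9.52 to 11.22 and Dtx1 from 8.45 to 9.71. In NOD DN4, 1 was higher and 5 lower, against 10.6% and 14.8% of all genes. Rag1 was at 11.08 in NOD and 10.03 in BDC/NOD. Of 7 later alpha-beta stage markers, 4 fell in B6g7 DN4, among them Cd8a (9.48 to 6.95) and Cd8b1 (11.08 to 8.02). The 1 that rose was Cd27 (11.07 to 12.53). In NOD DN4, 1 fell and 1 rose. Group means in non-Tg and BDC there were 8.24 and 7.52 for Cd4, 9.44 and 9.16 for Cd8b1, and 10.28 and 11.30 for Cd27. These DN4 counts stand beside the same shares of all genes.

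Markers of other lineages were mostly low, with exceptions. Of 6 erythroid markers matched 2 were tested, among them Tfrc (9.96 to 10.86 over all arrays). Of 11 thymic stroma markers 4 were tested. In non-Tg and BDC cells of B6g7 DN4, Pecam1 had group means of 9.16 and 10.71, Epcam 6.82 and 7.04, Krt8 7.32 and 7.06, and Col1a1 7.82 and 7.69. In NOD DN4, Pecam1 had 9.19 and 10.29, Epcam 6.99 and 6.74, Krt8 7.08 and 7.04, and Col1a1 7.55 and 7.58. Of the B cell markers, Cd79a (4.84 to 5.66 over all arrays) was at background and Cd79b (8.59 to 9.69) was the 1 bright enough to be tested, higher with the transgene in B6g7 DN4 (0.62 ± 0.10, limma adjusted p = 1.2e-04) and lower in both DN2-3 comparisons. Of 9 NK cell markers 6, such as Ncr1 (4.29 to 5.28), were at background in every group. The cytotoxic granule gene Nkg7 ran from 7.33 to 11.78 and was higher with the transgene in DN4 of both strains (3.54 ± 0.12 in B6g7 and 2.86 ± 0.12 in NOD), as was Prf1, and Tbx21 was lower. Of 12 myeloid and dendritic cell markers 3 were tested: Cd68 (7.69 to 8.88), Lyz2 (5.57 to 8.08) and Mpo (6.13 to 7.72), while S100a8 (4.54 to 4.97) was at background. Cd68 was lower with the transgene in DN4 of both strains, and Lyz2 was lower in DN2-3 of both. The part of these populations in the differences of the 58 genes was not tested. Sex was not balanced between genotypes, and with sex as a term in the fit the B6g7 DN4 transgene comparison still gave 55 lower and 1 higher.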

How the data were processed

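RNA was extracted with Trizol and hybridized after biotin labelling, 1 array for each of 16 samples, per the labels' protocols. The deposited values were linear intensities of 25108 probe sets, from 5.82 to 21466, made by the authors with RMA in Affymetrix Power Tools, per the submitters' processing notes, in versions that the sources used here do not give. The log2 of each deposited intensity was taken with no pseudocount. Among probe sets, 21157 had 1 gene symbol, 1341 several and 2610 none in the platform annotation, and the probe set with the highest mean of the 16 arrays stood for its gene, leaving 19531 genes. Genes entered the tests if any group mean reached 7.05 log2 (132.9 on the linear scale), the median of the named probe sets.

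Differences were fitted with limma 3.58.1 in R 4.3.3 (lmFit on 8 group means and eBayes, 8 residual and 5.06 prior degrees of freedom), so that all groups shared an estimate of the spread. The test was two-sided, with p-values adjusted by Benjamini and Hochberg across 10689 genes, comparison by comparison, and a threshold of 0.05. Errors are standard errors of this fit. There were 16 comparisons, 4 of them interactions. The number of arrays, 2 per group, limits the precision. Percentages beside counts are the shares of all genes tested that passed in the same direction. The scripts were tested on simulated data.

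The 59 genes, the 7 pathway lists (139 of 143 entries matched), the 9 marker lists (78 of 87 matched) and the tests were chosen with earlier results of these data known. By rule, every member could be named, values on every array were given for 14 genes (13 matched), and the text named up to 5 members higher and 5 lower with the largest change past the threshold in a comparison, up to 3 in each direction of an interaction, and up to 3 pathway genes in each direction. Members that departed from the list were singled out after their values were seen. Promoter sequences were RefSeq entries of GRCm38.p6.

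The alternatives were a filter at an intensity of 120 or none, the mean over probe sets, a further quantile normalization, centring on array medians, a replicate block, sex as a term, trended and robust eBayes, array weights, a pseudocount of 16, a fit to only the arrays compared, leaving out the 4 male arrays, and leaving out each array in turn. A quantile normalization together with leaving out NOD DN2-3 replicate 1 was added after the data were seen.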

Additional observations from a re-analysis of the deposited data

Results flagged for a closer look

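These results are listed because the effect of the transgene differed between strains or between stages in a test of the difference itself, the interaction term of the limma fit. For strain and transgene in DN4, 46 of the 58 genes passed, led by Cenpk (1.68), Bub1 (1.47) and Cenpi (1.45), all less reduced by the transgene in NOD than in B6g7 on the log2 scale. In DN2-3 the same test passed for 1 gene, Aspm (0.66). For transgene and stage, 57 genes passed in B6g7, led by Cenpk (-2.86), Spc25 (-2.80) and Cenpi (-2.75). In NOD 56 passed, led by Birc5 (-1.73), Kif2c (-1.71) and Kif20a (-1.71). The interactions share arrays with one another, and their causes were not tested.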

How the results depend on the processing

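Counts of members past the threshold were recomputed for 16 comparisons under 29 alternatives, 464 values in all. Of these 404 stayed within 1.5 times the count reported, 58 moved further and 2 reversed the balance of higher and lower genes. For the 71 named differences, 1926 of 2059 recomputed values kept their direction and their side of the threshold, 133 lost the call, and none changed sign. A filter at an intensity of 120, the mean over probe sets, trended and robust eBayes and a pseudocount of 16 changed none of these 71 calls.

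NOD minus B6g7 in non-Tg DN2-3, with 8 genes, gave 1 (lower) with array weights and 27 (9 higher, 18 lower) without NOD DN2-3 replicate 2, which are the reversals. It gave 4 with centred arrays, 0 with only the arrays compared, and 3 with the male arrays left out. In non-Tg DN4, with 5 genes, it gave 3 after quantile normalization again, 11 with centred arrays, 11 with array weights, 8 with only the arrays compared and 1 with the male arrays left out. In BDC DN2-3, with 5 genes, it gave 8 with array weights and 0 with the male arrays left out. The stage comparison in BDC NOD, with 3 genes, gave 10 after quantile normalization again, 1 with centred arrays, 24 with array weights, 5 with trended and robust eBayes, 22 with only the arrays compared and 0 with the male arrays left out. Strain by transgene in DN2-3, with 1 gene, gave 0 without a filter, 2 after quantile normalization again, and 0 with centred arrays, array weights, only the arrays compared or with the male arrays left out. With only the arrays compared, the transgene comparison in NOD DN2-3 gave 6 and the stage comparison in non-Tg NOD 33. With the male arrays left out, the transgene comparison gave 12 in B6g7 DN2-3, 29 in NOD DN2-3 and 8 in NOD DN4, and strain by transgene in DN4 gave 24. Quantile normalization again without NOD DN2-3 replicate 1 gave 3 for the strains in non-Tg DN2-3, 12 in non-Tg DN4 (6 higher, 6 lower), 9 in BDC DN2-3, 18 for the stages in BDC NOD and 2 for strain by transgene in DN2-3.

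Leaving out 1 array at a time gave 3 to 27 for the strains in non-Tg DN2-3, 1 to 20 in non-Tg DN4, 0 to 13 for the stages in BDC NOD and 0 to 18 for strain by transgene in DN2-3. It gave 54 to 58 for the transgene in B6g7 DN4, 24 to 50 in NOD DN4, 35 to 52 in B6g7 DN2-3, 48 to 53 in NOD DN2-3, and 51 to 55 for the strains in BDC DN4. Where an arm kept 1 array, that array was assumed to vary like the others. The median of all genes in the strain comparison of non-Tg DN4 was 0.13, 0.00 after quantile normalization again and 0.21 with centred arrays. The causes of these changes were not tested.

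With replicate number as a block, the B6g7 DN4 transgene comparison gave 56 genes, as without it, and the replicate block changed none of the 71 named calls. Deviations of same-numbered arrays correlated from -0.254 to 0.585 over 28 pairs of groups, 12 over 0.1 and 5 under -0.1. The 6 pairs among the BDC groups, where replicate 1 was male and replicate 2 female, ran from 0.313 to 0.479, and the other 22 from -0.254 to 0.585. No source used here says that a number marks a shared animal, litter or day.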
